A study of Rattus norvegicus with 8 samples.

Results

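The genes described here encode collagens, laminins, nidogens and other proteins of the extracellular matrix, and they were followed in cultured rat Sertoli cells exposed to 2 compounds. A list of 38 gene symbols was matched to the gene-level array by rows that carried 1 symbol only. Where a gene had several rows, the row with the highest mean signal over the 4 arrays was taken. A row was found for 35 of the 38, out of 17582 genes with rows of 1 symbol on the array. All 35 passed the signal filter, a mean log2 signal of at least 7.50. No row carried Lamb1 (a laminin beta chain), Hspg2 (the heparan sulfate proteoglycan perlecan) or Tnc (tenascin C) as its only symbol. Rows with several symbols were not used, and these 3 genes were not analysed here. The genes were sorted by role into 6 fibrillar collagens, 17 basement membrane genes, 5 other collagens and 10 elastic, adhesive and matricellular genes.

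Sertoli cells are the somatic cells of the seminiferous tubule that surround and nourish the germ cells. They were isolated from digested rat testes, grown in medium with 10% fetal bovine serum and treated after 24 hours for a further 24 hours. The 4 groups were a control (called a solvent control in the study's title), 0.1 µM NP, 0.1 mM MBP, and 0.1 µM NP with 0.1 mM MBP. The labels do not spell out either compound name, and they give no rat strain or age. Total RNA of each group was measured on 1 Affymetrix RaGene 1.0 ST array and on 1 Affymetrix microRNA array. Nothing states that the groups came from separate cultures, and no group had a replicate array of either type.

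Collagens are triple helices of 3 chains. Fibrillar collagens assemble outside the cell into tension-bearing fibres, whereas type IV collagen forms a sheet that joins the laminin network through nidogen to make a basement membrane. In the testis the basement membrane of the tubule lies between the Sertoli cells and the peritubular myoid cells, both of which contribute to it, and the wall outside it holds fibrillar collagen, fibronectin and elastic material.

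Because the groups had 1 array each, a difference between 2 arrays has no test. Each compound can, however, be read from 2 pairs of arrays that share no array. For MBP these are MBP against control and NP+MBP against NP, and for NP they are NP against control and NP+MBP against MBP. A mean ± SD below is over those 2 pairs, and the SD is the same for both compounds because it is set by how far the 4 arrays depart from adding up. The same 4 arrays were also fitted with an additive limma model, which had 1 residual degree of freedom and was adjusted over all 13798 probe sets past the filter. Signals depend on the probes, so levels are compared between arrays and never between genes.

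Matrix genes differed little between the arrays, with a range much like that of other bright sets. The range over the 4 arrays had a median of 0.073 log2 over the 35 genes, beside 0.10 log2 over all sets past the filter and 0.078 log2 over the brighter sets above the 75th percentile of signal. In 1 case a gene lay at least 1.2-fold from its partner array, elastin in NP+MBP against NP. None of the 35 did so in NP against control, where 3.04% of all sets past the filter did. None did so in MBP against control, where 2.96% of sets did, or in NP+MBP against control, where 5.6% did. For NP+MBP against NP the 1 matrix gene stood beside 0.833% of sets, and for NP+MBP against MBP the count was 0 beside 0.297%. Of the 35 genes, 29 lay above the 75th percentile of signal, where differences of this size were rarer. Over all sets above it the shares were 0.855%, 0.957%, 1.78%, 0.565% and 0.058%, in the order of comparisons just given. The limma fit called none of the 35 genes and 0% of all sets for MBP, and again none and 0% for NP. At an unadjusted p under 0.05, the same fit held 2110 of the 13798 sets for MBP and 1630 of them for NP. Among the 35 genes, 4 were under that limit for MBP, namely Postn, Eln, Col18a1 and Col6a1, and 0 for NP. For both compounds this was a smaller share than over all sets.

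**Figure D1:**
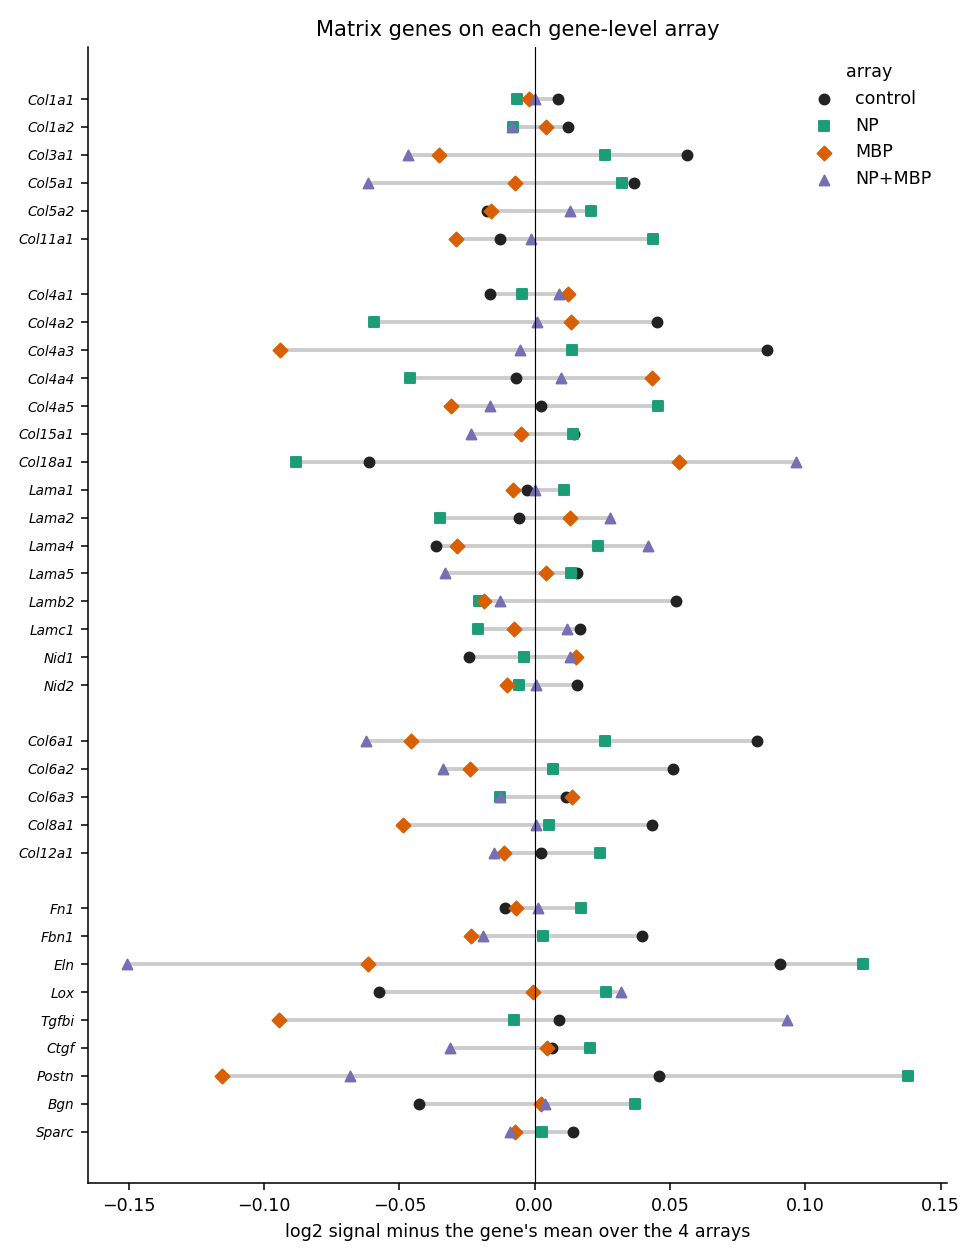
Log2 signal of the 35 matrix genes on each of the 4 gene-level arrays, as the difference from the gene's own mean over the arrays (horizontal axis, log2), with 1 point per array and a grey bar for the range; the blocks are, from the top, fibrillar collagens, basement membrane genes, other collagens, and elastic, adhesive and matricellular genes. Col1a1 spans 0.015 log2, while Eln and Postn span the widest ranges, with both MBP arrays on the low side.

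Several matrix genes lay on the same side in both MBP pairs. With MBP, 18 of the 35 genes were lower in both pairs, where 21.5% of all sets were, and 7 were higher in both, where 42.1% of all sets were. Arrays with MBP both lay below the 2 arrays without it for 15 genes, beside 13.9% of all sets, and both lay above for 5 genes, beside 28.8%. These counts moved with the scaling of the arrays. After centring each array on its median, 10 genes were lower in both pairs and 11 higher, beside 15.0% and 50.3% of all sets. With quantile normalization the counts were 22 and 5, beside 31.1% and 29.9%, and with cyclic loess 23 and 4, beside 30.5% and 30.6%. Under the deposited values and all 3 other scalings, 10 genes were lower in both MBP pairs, beside 14.9% of all sets. They were Col3a1, Col5a1, Col4a3, Col4a5, Col6a1, Col6a2, Col8a1, Fbn1, Eln and Postn. In the other direction 4 genes, Col4a4, Col18a1, Nid1 and Lox, were higher throughout, beside 28.7% of all sets. Across the 35 genes, the differences of the MBP pairs, which share no array, had a Pearson r of 0.61, against 0.42 over all sets past the filter. Without Eln and Postn, which lie farthest out, r was 0.43. These correlations are over genes, which are not independent replicates, and they carry no test.

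**Figure D2:**
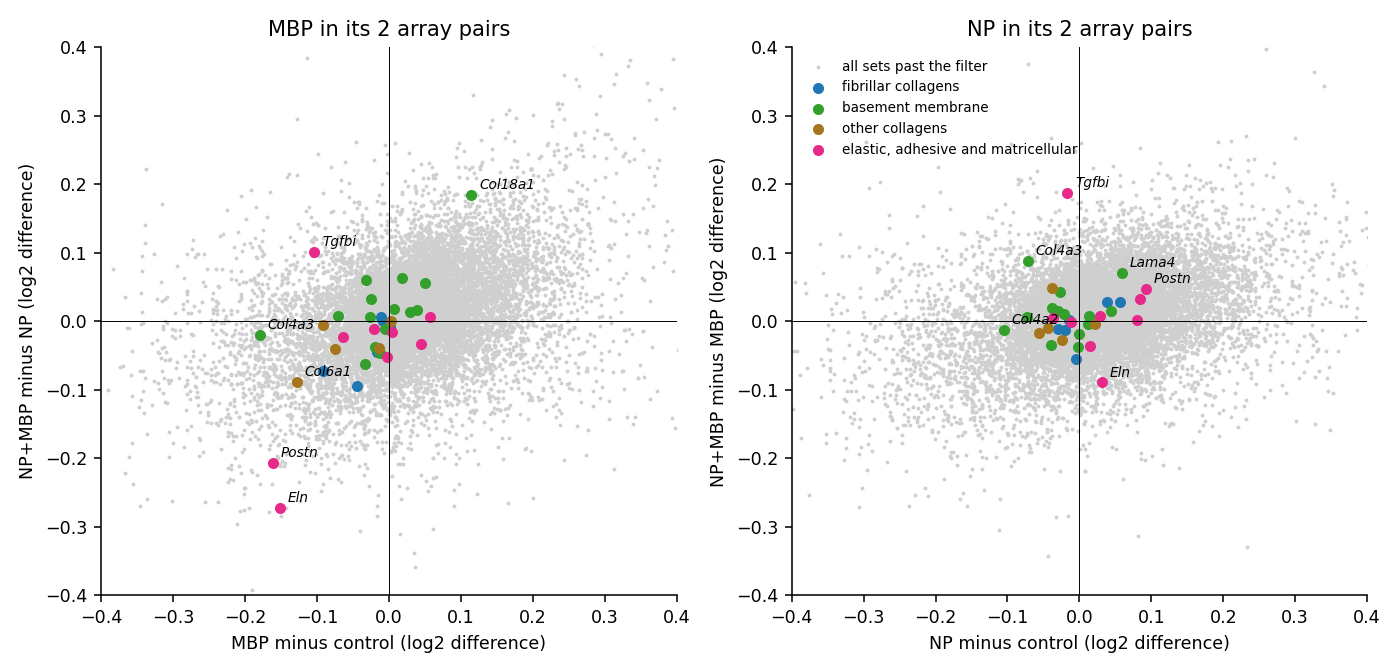
Log2 difference of each matrix gene (coloured by role) in the 2 array pairs of MBP (left) and of NP (right), over all sets past the signal filter (grey); 83 sets on the left and 87 on the right lie outside the axes, which stop at 0.4. Eln and Postn sit in the lower left of the MBP panel and Col18a1 in its upper right, whereas Tgfbi lies in the quadrant where the 2 MBP pairs have opposite signs.

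Elastin and periostin had the lowest means over the 2 MBP pairs of the 35 genes, although Col4a3 was lower than both in MBP against control alone. Eln encodes elastin, the core of the recoiling elastic fibre. Control gave a log2 signal of 9.74 and NP of 9.77, against 9.59 for MBP and 9.50 for NP+MBP. Both MBP arrays lay below both others, and the combination was the lowest. The log2 difference was -0.15 for MBP against control and -0.27 for NP+MBP against NP, a linear ratio of 0.900 and 0.828. Their mean was -0.21 ± 0.085 (SD, n = 2 pairs), with a limma adjusted p of 0.239. Under the other scalings that mean lay between -0.24 and -0.20. The probe set spans chr12:23033657-23077045 on the plus strand in RGSC3.4, the rat build of the deposited annotation.

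Postn encodes periostin, a matricellular protein that binds collagen and fibronectin. On the 2 arrays without MBP its log2 signal was 11.37 (control) and 11.46 (NP), and on the others 11.21 (MBP) and 11.26 (NP+MBP). Here too the MBP arrays did not overlap the others, and NP was the highest array. The MBP differences were -0.16 and -0.21, with a mean of -0.18 ± 0.032 (SD, n = 2 pairs) and a limma adjusted p of 0.236. With NP the differences were 0.092 and 0.047, so that periostin was higher in both NP pairs and lower in both MBP pairs. A limma prior that follows the signal level, tried as an alternative, put the adjusted p of Postn for MBP at 0.0207, the only one of the 35 genes under 0.05, and called 100 sets in all. The probe set spans chr2:143537099-143568337 on the plus strand in RGSC3.4.

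Col18a1 had the highest mean over the 2 MBP pairs. It encodes the chain of type XVIII collagen, a basement membrane collagen that carries heparan sulfate and releases endostatin. The control array read 8.90 log2, the NP array 8.87, the MBP array 9.02 and the NP+MBP array 9.06. Both MBP arrays lay above both others. The differences were 0.11 and 0.18, with a mean of 0.15 ± 0.050 (SD, n = 2 pairs) and a limma adjusted p of 0.260. The mean ranged from 0.12 to 0.17 over the scalings. The probe set spans chr20:11872548-11981635 on the plus strand in RGSC3.4.

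Upstream sequence is shown for Postn and Col18a1 because they had the lowest and the highest MBP mean of the genes with a window in the table used, which holds none for Eln, and for Col4a1 with Col4a2 because that pair shares it. The bases come from RefSeq (build GRCr8) and run from 5′ to 3′ on the plus strand. The Postn window of 250 bases before its start is chr2:140677811-140678060, with the TATA box TATAAA in capitals. The Col18a1 window of 250 bases is chr20:11473395-11473644, with each GC box, read on the plus strand as CCGCCC, in capitals. Col4a1 and Col4a2 are transcribed away from each other, and the 76 bases between their starts are chr16:84885521-84885596, again with the GC box in capitals.
Postn: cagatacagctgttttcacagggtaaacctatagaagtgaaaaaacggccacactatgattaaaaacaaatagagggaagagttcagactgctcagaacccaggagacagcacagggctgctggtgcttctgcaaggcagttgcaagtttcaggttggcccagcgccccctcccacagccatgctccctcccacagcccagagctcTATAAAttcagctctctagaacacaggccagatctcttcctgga
Col18a1: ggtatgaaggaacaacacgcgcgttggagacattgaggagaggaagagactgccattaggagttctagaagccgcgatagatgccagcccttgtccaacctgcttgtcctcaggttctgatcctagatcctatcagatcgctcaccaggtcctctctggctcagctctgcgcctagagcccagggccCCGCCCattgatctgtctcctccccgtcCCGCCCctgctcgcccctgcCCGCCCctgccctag
Col4a1 and Col4a2: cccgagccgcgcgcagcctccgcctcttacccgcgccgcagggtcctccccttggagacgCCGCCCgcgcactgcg

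Such windows were found for 25 of the 35 genes, and 3 short motifs were sought on both strands. TATAAA stood in 4 of the 25 windows (16%), beside 12.9% of 33469 windows of the same length over all genes. The 4 were those of Col1a2, Lama4, Postn and Ctgf (now named Ccn2). CCAAT stood in 6 windows (24%, beside 34.0%), and GGGCGG in 14 (56%, beside 30.5%). The windows are not all separate: those of Col4a1 and Col4a2 share 76 bases, which hold a GC box, and those of Col4a3 and Col4a4 share 88. Repeated gene symbols were removed from the 25 windows and not from the 33469. The GC content of the windows had a median of 60.4%, against 51.2% over all of them. A match describes the letters of the window and is not a binding site.

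The fibrillar collagens, whose chains build the banded fibres of connective tissue, spanned at most 0.10 log2 over the 4 arrays. Col1a1 and Col1a2 encode the chains of type I collagen. Col1a1 had a log2 signal of 12.79, 12.77, 12.78 and 12.78 in control, NP, MBP and NP+MBP, in that order, and Col1a2 of 12.56, 12.54, 12.55 and 12.54. The MBP mean differences of these 2 genes were -0.0018 and -0.0043. Col3a1, the chain of type III collagen, stood at 11.73 (control), 11.70 (NP), 11.63 (MBP) and 11.62 (NP+MBP). Its arrays did not overlap by MBP, and the mean MBP difference was -0.082 ± 0.013 (SD, n = 2 pairs), with a limma adjusted p of 0.332. Col5a1, a chain of the type V collagen that nucleates fibrils, stood at 9.92, 9.92, 9.88 and 9.82 in the same order, with a mean MBP difference of -0.069 ± 0.035 (SD, n = 2 pairs) and a limma adjusted p of 0.403. Its partner chain Col5a2 instead differed with NP, by 0.039 and 0.029 in the NP pairs. Col11a1, a chain of type XI collagen, was likewise higher in both NP pairs, by 0.057 and 0.028. The median MBP difference of the 6 fibrillar collagens was -0.018 log2, beside 0.018 over all sets past the filter. Under the other scalings it was between -0.040 and -0.0025, beside -0.00065 to 0.033 over all sets. For NP the median was -0.011, beside 0.014 over all sets. It turned to 0.0063 when arrays were centred on their medians, beside 0.032 over all sets.

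The type VI, VIII and XII collagens, which do not form banded fibres on their own, had the lowest group median with MBP. Col6a1 encodes a chain of the beaded-filament collagen VI found around cells. It read 10.69 log2 in control, 10.63 for NP, 10.56 for MBP and 10.54 for the combination. The arrays with MBP were the 2 lowest, and NP alone lay between them and control. Its MBP differences were -0.13 and -0.088, a mean of -0.11 ± 0.028 (SD, n = 2 pairs) with a limma adjusted p of 0.284. Col6a2, the second chain, followed the same order at 10.61, 10.56, 10.53 and 10.52, with an MBP mean of -0.058 ± 0.024 (SD, n = 2 pairs) and a limma adjusted p of 0.452. The third chain, Col6a3, stood at 11.46, 11.43, 11.46 and 11.43, and its MBP mean was 0.0011. Col8a1, a short-chain collagen of endothelial and other sheets, differed by -0.092 in MBP against control and by -0.0051 in NP+MBP against NP. Col12a1, a collagen that associates with fibrils, stood at 11.85, 11.87, 11.84 and 11.83. Over these 5 genes the median was -0.049 for MBP and -0.026 for NP, beside 0.018 and 0.014 over all sets past the filter. Both medians were below 0, and below the median over all sets, under every scaling tried.

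**Figure D3:**
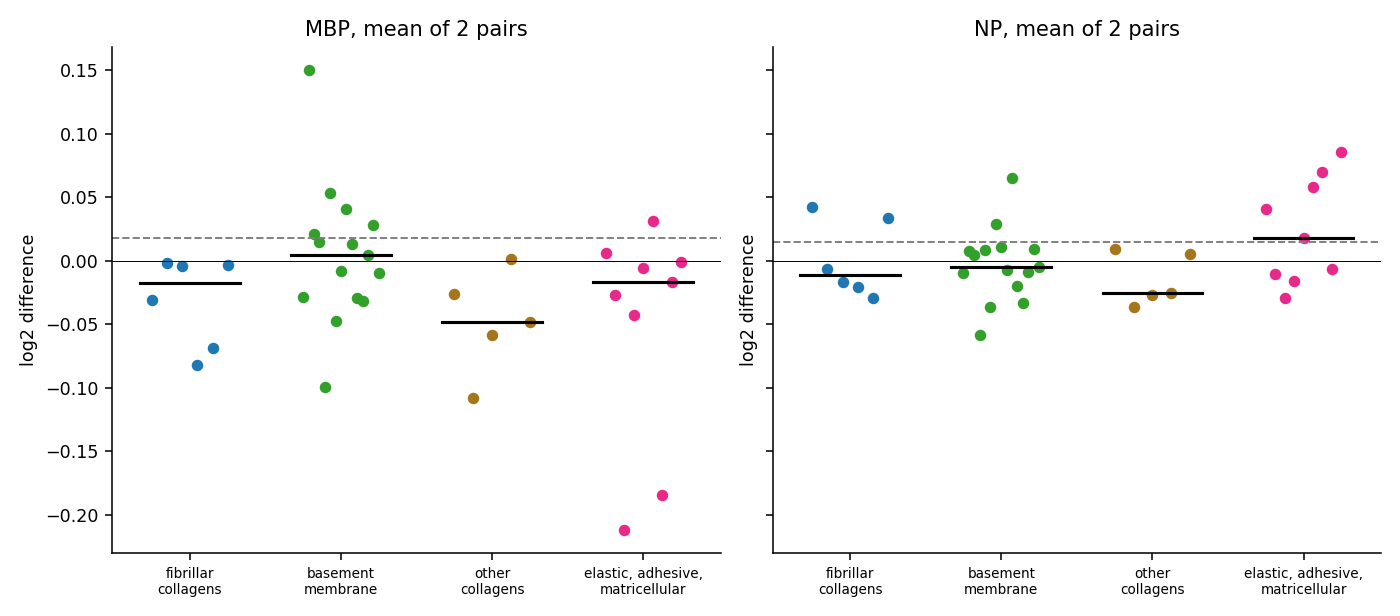
Mean log2 difference over the 2 array pairs of MBP (left) and NP (right) for each matrix gene, by role; black bars are group medians, the dashed line is the median over all sets past the filter, and points are spread sideways by gene name. The MBP medians are -0.018 for fibrillar collagens, 0.0043 for basement membrane genes, -0.049 for other collagens and -0.016 for the elastic, adhesive and matricellular genes.

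The basement membrane genes showed no common direction. Of the 15 with a row, 5 were lower and 6 higher in both MBP pairs (21.5% and 42.1% of all sets). Their median MBP difference was 0.0043 log2, beside 0.018 over all sets past the filter. That median was -0.014 with quantile normalization and -0.013 with cyclic loess, beside -0.00065 and 0.00083 over all sets. It lay below the median over all sets under every scaling. For NP, 4 were lower and 3 higher in both pairs (21.5% and 39.7% of all sets). The NP median was -0.0051, beside 0.014 over all sets, and it turned to 0.013 under median centring, beside 0.032. The type IV collagen chains, the sheet-forming collagens of every basement membrane, did not all go the same way with MBP. Col4a1 stood at 10.88, 10.89, 10.91 and 10.90 in control, NP, MBP and NP+MBP. Col4a2 stood at 11.38, 11.28, 11.35 and 11.34, with a range of 0.10 log2 against 0.029 for Col4a1, although the pair is transcribed from the shared stretch shown above. The Col4a2 row spans 81 bases only. A second Col4a2 row, with a span of 65798 bases and a lower mean signal, stood at 11.08, 11.09, 11.12 and 11.12, and its NP mean was 0.0080 where the first row gave -0.059. In MBP against control the second row gave 0.045 and the first -0.032, where Col4a1 gave 0.029. In NP against control the values were 0.014, -0.10 and 0.012 in that order. The NP and MBP values of Col4a2 therefore depend on the row chosen, and the longer row lay close to Col4a1.

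Col4a3, Col4a4 and Col4a5 encode the chains of the specialised type IV network that replaces the common chains in some basement membranes. Col4a3 had the largest single difference of the basement membrane genes from control in the MBP array. Its log2 signal was 8.18 (control), 8.11 (NP), 8.00 (MBP) and 8.09 (NP+MBP). Its MBP differences were -0.18 and -0.019, so the SD of 0.11 exceeded the size of the mean, -0.10. Col4a4 stood at 7.78, 7.74, 7.83 and 7.79, close to the filter, and its MBP differences were 0.050 and 0.056. Col4a3 and Col4a4 are also transcribed away from each other, and their upstream windows overlap by 88 bases. In the MBP pairs their signs were opposite. Col4a5, on the X chromosome, was lower in both MBP pairs, by 0.033 and 0.062 in size, at 8.90, 8.94, 8.86 and 8.88.

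The laminins, cross-shaped trimers that bind the cell surface, differed little between the arrays. Lama1, an alpha chain typical of early epithelial basement membranes, stood at 9.15, 9.16, 9.15 and 9.15 in control, NP, MBP and NP+MBP. Lama4, an alpha chain of vessels and mesenchyme, stood at 9.86, 9.92, 9.86 and 9.93, so that both NP arrays lay above both others. Its NP mean was 0.065 ± 0.0078 (SD, n = 2 pairs), the highest of the basement membrane genes, with a limma adjusted p of 0.481. Lama2, the muscle-type alpha chain, had an MBP mean of 0.041 ± 0.031, and Lama5, the broadly used epithelial alpha chain, of -0.029 ± 0.025 (SD, n = 2 pairs each). A second Lama2 row lay below the filter. Lamb2, a beta chain, was highest in control, at 10.38 against 10.31 on each of the other 3 arrays. Lamc1, the common gamma chain, ranged from 11.44 to 11.48. The linkers Nid1 and Nid2, which tie laminin to type IV collagen, stood at 12.58 to 12.62 and at 10.86 to 10.88. Nid1 was higher in both MBP pairs, by 0.039 and 0.017. Col15a1, a collagen at the border of basement membrane and fibrils, stood at 9.61, 9.61, 9.59 and 9.57.

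Among the remaining elastic and adhesive genes, Lox and Fbn1 lay on opposite sides in the MBP pairs. Lox encodes lysyl oxidase, which cross-links collagen and elastin. It stood at 12.40 (control), 12.48 (NP), 12.46 (MBP) and 12.49 (NP+MBP), so that control was the lowest array. Its NP mean was 0.058 ± 0.036 and its MBP mean 0.031 ± 0.036 (SD, n = 2 pairs), with limma adjusted p of 0.536 and 0.690. Fbn1, fibrillin of the elastic microfibril, stood at 12.13, 12.10, 12.07 and 12.07, with an MBP mean of -0.043 ± 0.029 (SD, n = 2 pairs). Fn1, the adhesive glycoprotein fibronectin, stayed between 12.94 and 12.97. The collagen-binding proteoglycan biglycan, Bgn, stood at 12.94, 13.02, 12.98 and 12.98. Sparc, a collagen-binding matricellular protein, stayed between 13.07 and 13.09. Ctgf, the connective tissue growth factor that is now named Ccn2, stood at 12.44, 12.45, 12.43 and 12.40. Tgfbi, an adhesive protein induced by TGF-beta, stood at 8.02, 8.01, 7.92 and 8.11, lowest with MBP alone and highest with the combination. Its MBP differences were -0.10 and 0.10. The departure of its arrays from adding up was 0.20 log2, the largest of the 35 genes.

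**Figure D4:**
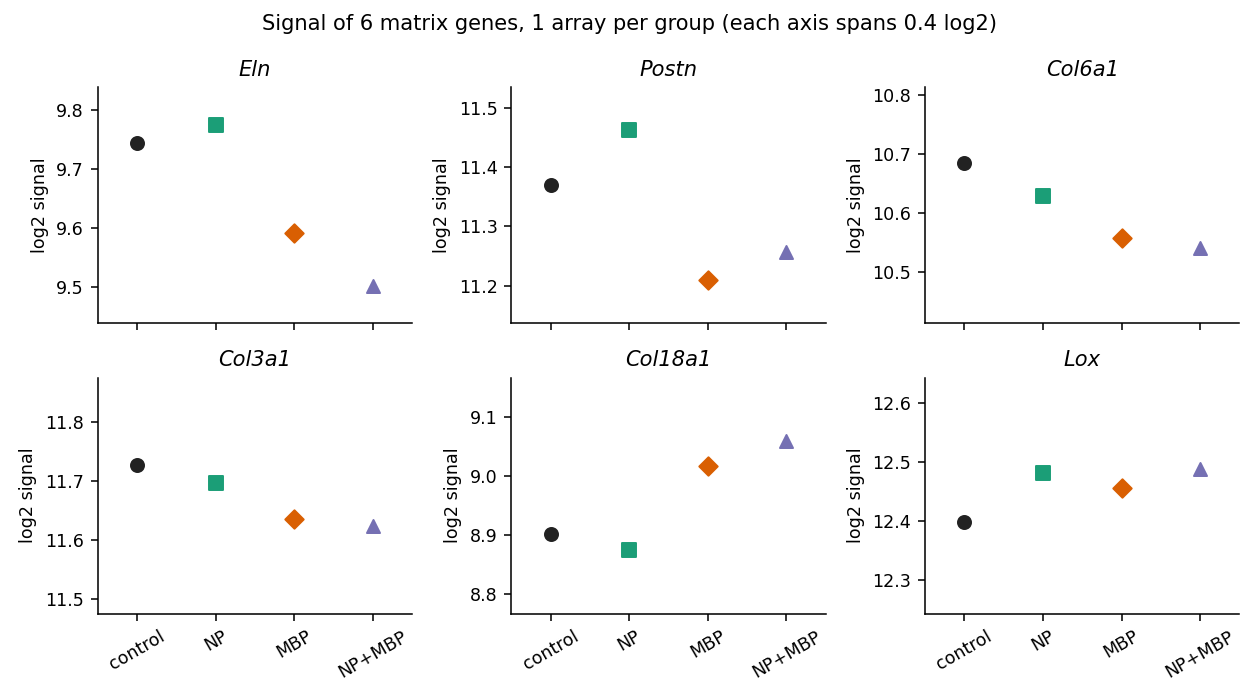
Log2 signal of Eln, Postn, Col6a1, Col3a1, Col18a1 and Lox on the control, NP, MBP and NP+MBP arrays, 1 array per group and so without error bars; every vertical axis spans 0.4 log2 and starts at a value other than 0. Eln, Postn, Col6a1 and Col3a1 are lowest on the 2 MBP arrays, Col18a1 is highest there, and Lox is lowest in control.

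The NP pairs were counted in the same way. Of the 35 genes, 11 were lower in both NP pairs, beside 21.5% of all sets, and 9 higher, beside 39.7%. Arrays with NP both lay below the 2 others for 3 genes (Col1a2, Col4a2 and Col6a3), beside 12.6% of all sets, and both above for 7, beside 23.2%. Under every scaling 5 genes were lower in both NP pairs, beside 13.7% of all sets, and 7 were higher, beside 27.4%. The 5 were Col3a1, Col4a2, Col4a4, Col6a1 and Col6a2, with Col4a2 read from its 81-base row in all these counts. The 7 were Col5a2, Col11a1, Col4a5, Lama4, Fn1, Lox and Postn. The r between the NP pairs over the 35 genes was 0.050, against 0.38 over all sets. The sign of the NP mean changed between scalings for 15 of the 35 genes and that of the MBP mean for 11. Such changes were not counted over all sets, so these counts cannot be read as particular to the matrix genes. In the combination against control, the lowest differences were those of Eln (-0.24) and Col6a1 (-0.14) and the highest that of Col18a1 (0.16). Control was the highest array for 16 of the 35 genes, where it was highest for 21.7% of all sets.

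Genes that act on the matrix were counted as lists, and none of their members was called by the limma fit. The counts below stand beside 21.5% of all sets lower and 42.1% higher in both MBP pairs. For both NP pairs these shares were 21.5% and 39.7%. Among 23 genes of collagen folding and processing past the filter, 6 were lower and 9 higher in both MBP pairs, with a median of 0.010 log2. The lowest MBP means were those of P4ha2 (-0.087) and P4ha3 (-0.080), prolyl hydroxylase subunits that stabilise the triple helix. The highest were those of Adamts14 (0.24), a procollagen-trimming protease, and Loxl2 (0.074), a lysyl oxidase relative. For NP, 7 were lower and 7 higher, from Lepre1 (-0.033) and Loxl1 (-0.033) to Leprel1 (0.085) and Adamts3 (0.12). Of 10 matrix proteases and inhibitors, 3 were lower and 5 higher with MBP, from Mmp2 (-0.044) and Timp2 (-0.027) to Mmp11 (0.19) and Mmp9 (0.20), and 2 were lower and 7 higher with NP, from Mmp9 (-0.10) and Mmp2 (-0.020) to Mmp11 (0.026) and Timp3 (0.051). Of 15 genes of TGF-beta signalling, a main inducer of matrix genes, 4 were lower and 7 higher with MBP. Their MBP means ran from Tgfbr2 (-0.094) and Ltbp1 (-0.075) to Tgfb1 (0.068) and Smad7 (0.093). With NP, 1 was lower and 9 were higher, from Tgfbr2 (-0.052) and Ltbp3 (-0.037) to Smad4 (0.049) and Smad7 (0.038).

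A pair of matrix receptors, Itga6 and Itga7, differed more with MBP than any of the 35 matrix genes did. Of 13 receptors past the filter, 10 were higher and 3 lower in both MBP pairs (42.1% and 21.5% of all sets), with a median of 0.055 log2. Itga6, the alpha subunit of laminin-binding integrins, stood at 10.08 (control), 10.12 (NP), 10.41 (MBP) and 10.50 (NP+MBP). Its MBP mean was 0.36 ± 0.033 (SD, n = 2 pairs), with a limma adjusted p of 0.118. Itga7, another laminin-binding alpha subunit, stood at 7.70, 7.64, 8.11 and 8.01, with an MBP mean of 0.39 ± 0.031 (SD, n = 2 pairs) and a limma adjusted p of 0.104. Both receptors passed 1.2-fold in each MBP pair, beside 2.96% of all sets in MBP against control and 0.833% in NP+MBP against NP. Their MBP arrays both lay above the others, as they did for 28.8% of all sets. Without MBP, Itga7 lay close to the filter of 7.50. The lowest MBP means were those of Itga11 (-0.11), a subunit of a fibrillar collagen receptor, and Ddr2 (-0.028), a receptor kinase for fibrillar collagen. For NP, 3 were lower and 5 higher (21.5% and 39.7% of all sets), from Itga7 (-0.078) and Ddr1 (-0.067) to Itga1 (0.037) and Itga6 (0.067).

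**Figure D5:**
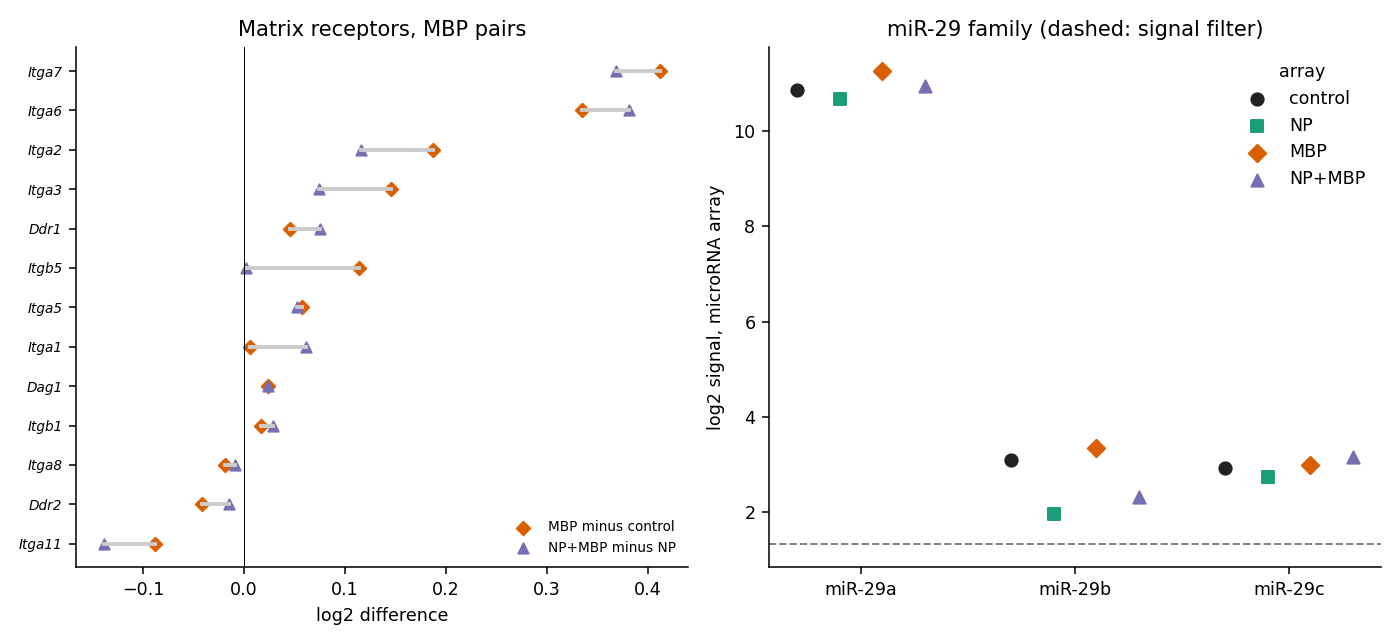
Left, log2 difference of the 13 matrix receptors in the 2 MBP array pairs, ordered by their mean; right, log2 signal of miR-29a, miR-29b and miR-29c on the 4 microRNA arrays, with the signal filter dashed. Itga6 and Itga7 lie above 0.3 in both pairs, and miR-29b is lowest on the 2 NP arrays.

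Cell type markers were read beside these values because the arrays measured whole cultures. Of the Sertoli markers 11 of 14 had a row and 9 passed the filter, while Amh and Cst12 did not. The summed linear signal of all 11 with a row lay between 12397 and 12969. Such sums are compared between arrays and not between lists. Of the 9, 2 were lower and 4 higher in both MBP pairs (21.5% and 42.1% of all sets), with a median of 0.032 log2. The lowest of the 9 was Cldn11 (claudin 11 of the tight junction) with an MBP mean of -0.62. All 9 peritubular myoid markers with a row passed, with a sum between 42582 and 42995 and a median MBP difference of -0.00076. All 10 fibroblast and stromal markers passed, with a sum of 21655 (control), 22589 (NP), 20794 (MBP) and 21091 (NP+MBP). Of these 10, 6 were lower and 0 higher in both MBP pairs (21.5% and 42.1% of all sets), with a median of -0.13 log2. Dpt (dermatopontin) had an MBP mean of -0.52 and Cd34 of -0.44, while Pdgfra, Dcn, Mfap4 and Nr2f2 had opposite signs in the MBP pairs. Eln, Postn and Col6a1 were likewise lower in both MBP pairs, and the part of stromal cells in those values was not tested. In such whole-culture RNA, fewer cells of a type and less RNA per cell cannot be told apart. Of the other cell types, 1 of 8 macrophage, 1 of 4 endothelial, 2 of 5 Leydig and 2 of 6 germ cell markers with a row passed the filter.

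The miR-29 microRNAs, which in mammals bind the mRNAs of many collagens and of elastin, were read from the microRNA arrays. Their mature sequences, from RefSeq (build GRCr8), are given to show what the 3 share, with the seed (bases 2 to 8) in capitals. In GRCr8, miR-29a lies at chr4:60617968-60617989 on the minus strand. The 2 genes of miR-29b lie at chr4:60618342-60618364 (minus) and chr13:109098882-109098904 (plus), and miR-29c lies at chr13:109099412-109099433 (plus).
miR-29a: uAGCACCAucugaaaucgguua
miR-29b: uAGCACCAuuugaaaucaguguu
miR-29c: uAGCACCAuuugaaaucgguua

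All 3 carry the seed AGCACCA. From miR-29a to miR-29c the sequences differ by C10U alone, counted from the 5′ end. The miR-29a signal, taken as log2, was 10.86 (control), 10.66 (NP), 11.25 (MBP) and 10.94 (NP+MBP). It was lower in both NP pairs, by 0.20 and 0.31 in size, and higher in both MBP pairs, by 0.39 and 0.28. The miR-29b signal was 3.11, 1.96, 3.36 and 2.33 in the same order, and both NP arrays lay below both others. Its NP differences were -1.14 and -1.02, with a mean of -1.08 ± 0.084 (SD, n = 2 pairs). These values lie near the filter of 1.35, which 340 of 680 mature rat microRNAs passed. For miR-29c the signal was 2.93, 2.75, 2.99 and 3.15, with NP differences of -0.19 and 0.16. Among the 340 microRNAs, 30% were lower in both NP pairs, 41.2% were higher in both MBP pairs, and 3 (0.882%), miR-29b among them, were at least 2-fold lower in both NP pairs. The differences of all 340 had an SD of 0.43 to 0.61, depending on the pair, so those of miR-29a and miR-29c lay within it. The row of the opposite strand, miR-29b-2-star, stood at 2.33, 1.32, 3.10 and 2.79, and the other 3 star rows did not pass the filter. MicroRNA and mRNA arrays were normalized separately, and no relation between them was tested.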

How the data were processed

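RNA of rat Sertoli cells in primary culture was hybridised, for 4 groups, to 2 types of Affymetrix array, 1 array per group and type, with groups taken from the sample titles. The gene-level log2 values were deposited by the authors as gene-level RMA signals, per the file headers, whereas MAS5 is the tool in the submitters' processing notes, without a version. The deposited workbook and value table differed in 0 cells (tolerance 1e-09). How the authors made the deposited microRNA values is not given in the sources used here. Their scale was taken as log2. Workbook columns carry group initials and were matched to the titles by them. Gene positions are RGSC3.4 from the workbook, and sequences are from RefSeq GRCr8, with no conversion between builds.

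Of 29214 sets, 27596 were not controls, and 13798 had a mean log2 signal at or above their median, 7.50. The filter does not separate signal from background for every set: 45 antigenomic background sets had a median of 5.23 and a highest mean of 9.62. Additive models were fitted to the 13798 with lmFit and eBayes of limma 3.58.1 (R 4.3.3), threshold 0.05 after Benjamini-Hochberg adjustment over all of them. The fit was also run on simulated arrays with the same spread for every set and no interaction. The real arrays need not share that setting, so the run cannot vouch for the fit here. Other values came from Python 3.11.15, numpy 2.4.6 and pandas 2.3.3. Any real interaction of the compounds enters the additive model as error. The precision is limited by the number of arrays. The p-values rest on how far the 4 arrays depart from adding up, moderated over all sets, and that departure may be technical. They hold no measure of the spread between replicate cultures or arrays.

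The members, roles, pathway lists and markers were chosen with earlier results of these data known. All members are named. Pathway genes are named for the 2 highest and 2 lowest mean differences of each compound's pairs among those past the filter. The values were recomputed with median centring, quantile normalization, cyclic loess, other filters, fold limits of 1.1 and 1.5, averaging every row of a gene, and a limma prior that follows signal. Directions in both MBP pairs were recomputed in the same way, as an alternative chosen after seeing the data.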

Additional observations from a re-analysis of the deposited data

Results flagged for a closer look

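Tgfbi was singled out because its MBP difference had opposite signs without and with NP. It was -0.10 for MBP against control and 0.10 for NP+MBP against NP, each at least 0.1 log2 in size. With 1 array per group this difference between the pairs was not tested. In all, 10 of the 35 matrix genes had opposite signs in the MBP pairs, and Tgfbi was the only one with both at least 0.1 log2. Of all sets, 21.5% were lower and 42.1% higher in both MBP pairs, and the rest had opposite signs or a difference of 0. How many of all sets met the limit that Tgfbi met was not counted.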

How the results depend on the processing

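No paired analysis was possible because each group has 1 array of each type, and the 2 samples of a group are different array types. For the same reason no replicate could be left out. The fibrillar collagen median for MBP (-0.018 log2) was -0.0025 with median centring, -0.040 with cyclic loess and -0.039 with quantile normalization. For NP (-0.011) it was 0.0063, -0.019 and -0.020 in that order. The basement membrane median for MBP (0.0043) was -0.014 with quantile normalization. Genes higher in both MBP pairs numbered 7, against 11 with median centring and 4 with cyclic loess, and those lower numbered 18, against 10 with median centring. At a fold of 1.1, the counts of the 35 genes were 3 for MBP against control (Col4a3, Eln and Postn), beside 17.1% of all sets, and 3 for NP+MBP against control (Eln, Col18a1 and Col6a1), beside 24.0%. They were 3 for NP+MBP against NP (Eln, Postn and Col18a1), beside 7.04%, and 1 for NP+MBP against MBP (Tgfbi), beside 3.80%. At a fold of 1.5 the count for NP+MBP against NP was 0. For NP+MBP against control 1 of 35 genes, Eln, passed a fold of 1.2 under cyclic loess (beside 5.20% of all sets) and under quantile normalization (beside 5.44%). In the limma fit, 1 gene, Postn, was called for MBP with the prior that follows signal. Over all sets, the fit's calls for MBP and NP were 43 and 2 with median centring, 11 and 1 for sets above the signal's 75th percentile, 100 and 5 with that prior, and 0 and 13 with no filter. The scalings moved the median over all sets by at most 0.041 log2 in size. Over all sets past the filter, the median MBP difference was 0.018 log2. It was 0.033 with median centring, -0.00065 with quantile normalization and 0.00083 with cyclic loess. For NP the median was 0.014, and 0.032, -0.0024 and 0.00035 in the same order. Median centring moves all sets of an array by the same constant, so group medians and all sets moved together there. The cause of the other shifts was not tested.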
